A study of Homo sapiens with 10 samples.

Results

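The transcripts of 10 genes were followed: MTOR, RPTOR, RICTOR, MLST8, DEPTOR and AKT1S1, which encode subunits of the mTOR complexes, and TSC1, TSC2, RHEB and DDIT4, which encode regulators close upstream of mTOR complex 1. They were chosen by gene name among the 35606 gene IDs of each deposited table, and all 10 were present in both tables and passed the filter on low values. The cells were QGP-1, a line established from a human pancreatic neuroendocrine tumor, in 10 RNA-seq samples with 2 in each of 5 groups. In the first table, cells with CRISPRi (a nuclease-dead Cas9 fused to the KRAB repressor, delivered by lentivirus) and the control guide sgNC were compared with cells carrying the same system and the guide sgPIKFYVE-1, which targets the promoter of the lipid kinase gene PIKFYVE. In the second, wild-type cells in DMSO were compared with cells in 1 µM apilimod, an inhibitor of PIKfyve, or in 100 nM Torin-1, an ATP-competitive inhibitor of mTOR in both of its complexes.

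The knockdown cells were a puromycin-selected population with 1 guide against PIKFYVE, so effects of that guide elsewhere in the genome cannot be told apart from those of PIKFYVE. The sample labels give 24 h for both drugs, whereas the figure legends of the study give a shorter exposure, and the time could not be settled from the values. Apilimod and Torin-1 were read against the same DMSO samples. Nothing in the labels says that the 2 samples of a group came from separate cultures, so the p-values measure the spread between these samples, which may be technical. Levels in the 2 tables were normalized separately, and no test was made across them.

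mTOR is a serine/threonine kinase that works in a pair of complexes. mTOR complex 1 holds RPTOR (Raptor), the subunit that recruits substrates, and it is known for promoting translation and growth when amino acids and insulin are plentiful. mTOR complex 2 holds RICTOR and phosphorylates AKT, SGK1 and protein kinase C. MLST8 belongs to both complexes, DEPTOR is an inhibitory subunit described in both, and AKT1S1 (PRAS40) is an inhibitor of complex 1 that AKT phosphorylates. The small GTPase RHEB switches complex 1 on at the lysosome, and TSC2, held stable by TSC1, is the GTPase-activating protein that switches RHEB off. DDIT4 (REDD1) is a stress-induced inhibitor of complex 1 that acts through the TSC proteins. PIKfyve makes the phosphoinositide PI(3,5)P2 on endosomes and lysosomes, the membranes where complex 1 is activated.

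Depth, estimated from the value of a single read, was between 9.30 and 13.6 M reads per sample. The members lay between 4.38 and 159 CPM, or 47 to 1911 reads, all above the 3 reads that correspond to 0.227 to 0.329 CPM. Of 10 neuroendocrine markers, 9 were above 1 CPM in every sample, with NEUROD1 at 0.700 CPM or less, and so were 5 of 5 epithelial markers. Of 11 markers of blood, fibroblasts, endothelium and acinar cells, 7 were under 1 CPM in every sample. The sum of all 11 was 11.7 to 12.2 CPM in DMSO, 20.3 to 21.3 CPM in apilimod and 20.9 to 25.6 CPM in Torin-1. It was 19.3 to 19.7 CPM in sgNC and 26.3 to 27.9 CPM in sgPIKFYVE-1. LYZ, COL1A1, PECAM1 and PRSS1 reached 18.4, 9.60, 3.755 and 17.97 CPM in the highest sample. Of the rest, CD3E and CPA1 were at 0 throughout, and PTPRC, COL1A2, DCN, VWF and CDH5 stayed under 1 CPM. The part of other cell types in the results was not tested. In bulk RNA, fewer cells with a transcript and less of it per cell cannot be told apart. PIKFYVE, the target of the guide, was at 101 and 97.5 CPM in sgNC and 10.9 and 12.5 CPM in sgPIKFYVE-1, which is 11.8% of control (log2 fold change −2.98, SE 0.098).

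The members are spread over the genome (positions from GENCODE release 29 on GRCh38). MTOR spans chr1:11106535-11262507 on the reverse strand, RPTOR chr17:80544819-80966371 on the forward strand, RICTOR chr5:38937919-39074408 on the reverse strand and RHEB chr7:151466012-151520120 on the reverse strand. TSC2 (chr16:2047465-2089487) and MLST8 (chr16:2204248-2209416) both lie on the forward strand of chromosome 16. AKT1S1 spans chr19:49869033-49878459 and TSC1 chr9:132891348-132946874, both in reverse orientation. DDIT4, the shortest of the genes, spans chr10:72273920-72276036 on the forward strand with 3 exons. Exons of 9 of the 10 overlap an exon of another gene, RHEB being the exception: DDIT4 overlaps DDIT4-AS1, MTOR overlaps MTOR-AS1, RICTOR overlaps OSMR, and TSC2 overlaps NTHL1 and PKD1, all on the opposite strand. Whether the authors' counting used strand is not given in the sources used here, so reads in these overlaps could not be assigned to one gene or the other.

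Promoter sequences are shown for 3 members that moved in both the knockdown and the Torin-1 comparison. They come from a set of RefSeq promoters (GRCh38.p14), in which AKT1S1, which also passed in both, had no entry. Each is given as the 250 bases before the annotated start in the direction of transcription. Capitals mark ACGTG, a form of the hypoxia response element core, and CCAAT, the CCAAT box. Both strands were searched (CACGT and ATTGG on the printed strand). GCGTG, another form of that core, was not searched for and is not marked. The DDIT4 window is chr10:72273674-72273923 (forward strand), the RICTOR window chr5:39074400-39074649 (reverse strand) and the TSC2 window chr16:2047735-2047984 (forward strand).
DDIT4: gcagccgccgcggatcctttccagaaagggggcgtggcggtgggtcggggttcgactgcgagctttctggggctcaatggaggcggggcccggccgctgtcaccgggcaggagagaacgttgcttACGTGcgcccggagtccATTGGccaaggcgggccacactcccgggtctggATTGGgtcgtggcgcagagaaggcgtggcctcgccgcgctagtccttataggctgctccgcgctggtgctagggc
RICTOR: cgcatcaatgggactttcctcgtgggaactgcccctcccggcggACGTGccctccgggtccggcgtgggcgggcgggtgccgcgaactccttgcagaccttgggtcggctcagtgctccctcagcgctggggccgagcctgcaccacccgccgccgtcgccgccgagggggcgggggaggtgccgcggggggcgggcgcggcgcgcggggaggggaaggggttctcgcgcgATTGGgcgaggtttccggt
TSC2: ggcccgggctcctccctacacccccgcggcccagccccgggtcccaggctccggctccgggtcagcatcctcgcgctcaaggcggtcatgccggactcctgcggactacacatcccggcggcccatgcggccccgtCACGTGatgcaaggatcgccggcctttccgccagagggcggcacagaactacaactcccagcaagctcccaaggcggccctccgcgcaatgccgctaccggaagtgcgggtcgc
The DDIT4 window held ACGTG 125 bases before the start, with CCAAT boxes on the reverse strand at 108 and 75 bases. The RICTOR window held ACGTG at 206 bases and a reverse CCAAT at 19 bases. In TSC2 the letters CACGTG, the E-box, read as ACGTG on both strands at 114 and 113 bases, and the window before a second RefSeq start of the gene had neither motif. Both TSC2 windows lie inside the GENCODE span of the gene, which starts further upstream. Promoter entries matched 7 of the 10 members (not MLST8, DEPTOR or AKT1S1), of which 4 held ACGTG (RICTOR, TSC2, RHEB and DDIT4) and 4 held CCAAT (MTOR, RICTOR, RHEB and DDIT4), against 18.5% and 32.0% of all 35116 promoter windows of that length. The E-box CACGTG was in 1 of the 7 (TSC2) and in 6.34% of all windows. The GC box GGGCGG was in 5 of the 7 and in 42.6% of all windows. TATAAA was in RPTOR alone among the 7 and in 10.7% of all windows, and the cyclic AMP response element TGACGTCA was in 0 of the 7 and in 1.65% of all windows. A member was counted if any of its windows held the motif, whereas the shares are of windows, and the 7 members had 8 windows. These matches describe letters only and say nothing of which factor binds.

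Levels between genes were compared per kilobase, with CPM divided by the length of the principal transcript. In DMSO the order from lowest to highest was TSC1 at 5.41 CPM per kb, RPTOR at 6.19, DEPTOR at 6.97, RICTOR at 10.9, MTOR at 11.6, TSC2 at 13.5, MLST8 at 20.3, AKT1S1 at 20.9, DDIT4 at 23.0 and RHEB at 68.2. The transcript of the GTPase RHEB thus stood at the top of the list and those of TSC1 and RPTOR at the bottom. In sgNC the order began with RPTOR at 5.99 CPM per kb and TSC1 at 6.31, followed by MTOR at 9.78, MLST8 at 13.8, DEPTOR at 14.1, RICTOR at 14.6, TSC2 at 14.9, AKT1S1 at 18.4 and RHEB at 47.4. DDIT4 led the sgNC list at 81.9 CPM per kb. Neighbors such as MLST8 and AKT1S1 in DMSO, or DEPTOR, RICTOR and TSC2 in sgNC, differed by little and were not tested against each other.

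**Figure D1:**
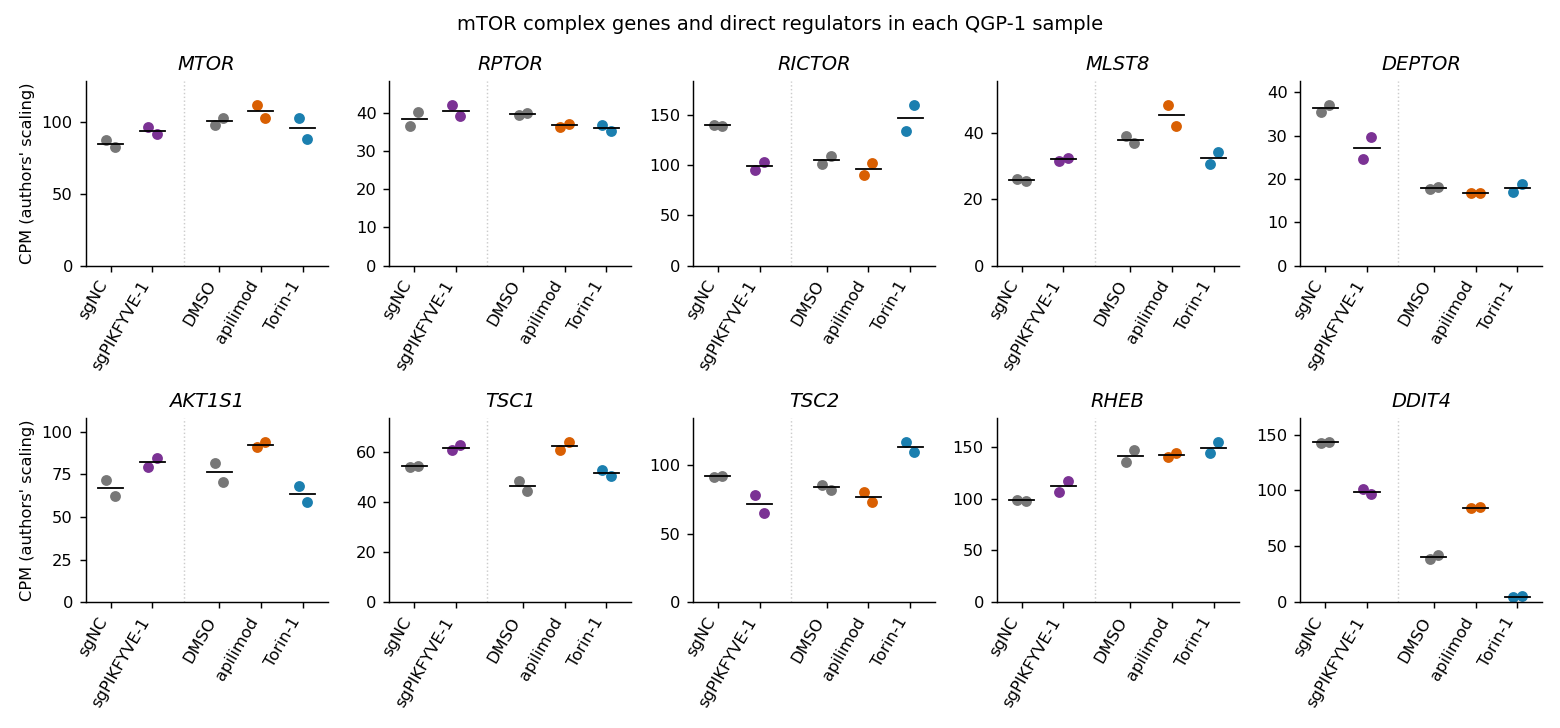
CPM of each of the 10 members in every sample, by group, with points for the 2 samples and a bar at their mean. DDIT4 in Torin-1 (4.38 and 5.86 CPM) is the lowest pair of points of all members, and the highest value is that of RICTOR in Torin-1 (159 CPM).

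With PIKFYVE repressed, RICTOR, DEPTOR, TSC2 and DDIT4 fell, and MLST8, AKT1S1 and RHEB rose, all by less than 1.5 times. These 7 of 10 members passed limma's test at an adjusted p of 0.05, 3 higher and 4 lower. Of all 13591 genes tested in that table, 42.5% passed (21.6% higher and 20.9% lower), and the count of members is to be read against that share. Values of the 2 sgPIKFYVE-1 samples did not overlap those of the 2 sgNC samples for 9 of 10 members, against 70.6% of all genes. The median log2 fold change of the members was 0.11, and that of all genes was −0.00421.

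The kinase itself and the defining subunit of complex 1 did not pass. MTOR was at 87.4 and 82.3 CPM in sgNC and at 96.4 and 91.6 CPM in sgPIKFYVE-1, higher in both knockdown samples without passing (log2 fold change 0.15, SE 0.066, adjusted p = 0.0829 by limma). RPTOR was at 36.6 and 40.1 CPM in sgNC and at 42.0 and 39.0 CPM in sgPIKFYVE-1. The RPTOR groups overlapped (log2 fold change 0.08, 95% interval −0.11 to 0.27). The subunit of complex 2 behaved differently. RICTOR was at 139.6 and 139 CPM in sgNC and at 94.9 and 103 CPM in sgPIKFYVE-1, so both knockdown samples lay well under both controls. This was 71.0% of the control mean (log2 fold change −0.49, SE 0.061, adjusted p = 2.66e-06 by limma).

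Of the subunits found in both complexes, MLST8 went up and DEPTOR down. MLST8 was at 26.1 and 25.5 CPM in sgNC and at 31.6 and 32.5 CPM in sgPIKFYVE-1 (log2 fold change 0.30, SE 0.101, adjusted p = 0.0223 by limma). The groups did not overlap, but the MLST8 call was lost without sgNC replicate 1, without sgNC replicate 2 or without sgPIKFYVE-1 replicate 2, with an adjusted p of up to 0.117 over its alternatives. DEPTOR was at 35.5 and 37.0 CPM in sgNC and at 24.7 and 29.8 CPM in sgPIKFYVE-1 (log2 fold change −0.41, SE 0.106, adjusted p = 0.00436 by limma). Both DEPTOR (forward strand of chromosome 8) knockdown samples were under both controls, and the call was lost without sgPIKFYVE-1 replicate 1, without the filter on low values and without limma's variance trend, with an adjusted p of up to 0.0635 over its alternatives. AKT1S1, the complex 1 inhibitor, was at 71.5 and 62.6 CPM in sgNC and at 79.4 and 84.8 CPM in sgPIKFYVE-1. It was higher in both knockdown samples (log2 fold change 0.29, SE 0.076, adjusted p = 0.00452 by limma), and the call was lost without sgNC replicate 2, without the filter and without the trend (adjusted p of up to 0.109).

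Among the regulators, TSC2 and DDIT4, both inhibitors of complex 1, were lower in the knockdown. TSC2 was at 91.5 and 91.6 CPM in sgNC and at 78.0 and 65.0 CPM in sgPIKFYVE-1. The controls were nearly equal and the knockdown samples further apart, and both knockdown samples were lower (78.1% of control, log2 fold change −0.36, SE 0.078, adjusted p = 0.00104 by limma). Without the trend the TSC2 call was lost, at an adjusted p of 0.0792. DDIT4 was at 143 and 144 CPM in sgNC and at 101 and 96.9 CPM in sgPIKFYVE-1, or 69.2% of control (log2 fold change −0.53, SE 0.059, adjusted p = 6.53e-07 by limma). Its samples were tight within each group and far apart between them. TSC1, the partner of TSC2, was at 54.0 and 54.6 CPM in sgNC and at 60.7 and 63.0 CPM in sgPIKFYVE-1, higher in both samples without passing (log2 fold change 0.18, adjusted p = 0.0556 by limma). RHEB was at 98.5 and 98.1 CPM in sgNC and at 107 and 117 CPM in sgPIKFYVE-1 (log2 fold change 0.18, SE 0.064, adjusted p = 0.0255 by limma). The RHEB call was lost without sgNC replicate 1, without sgNC replicate 2, without sgPIKFYVE-1 replicate 2, without the filter, without the trend, and after quantile normalization or rescaling to a common sum, with an adjusted p of up to 0.193. The calls of RICTOR and DDIT4 held under every alternative tried for them.

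**Figure D2:**
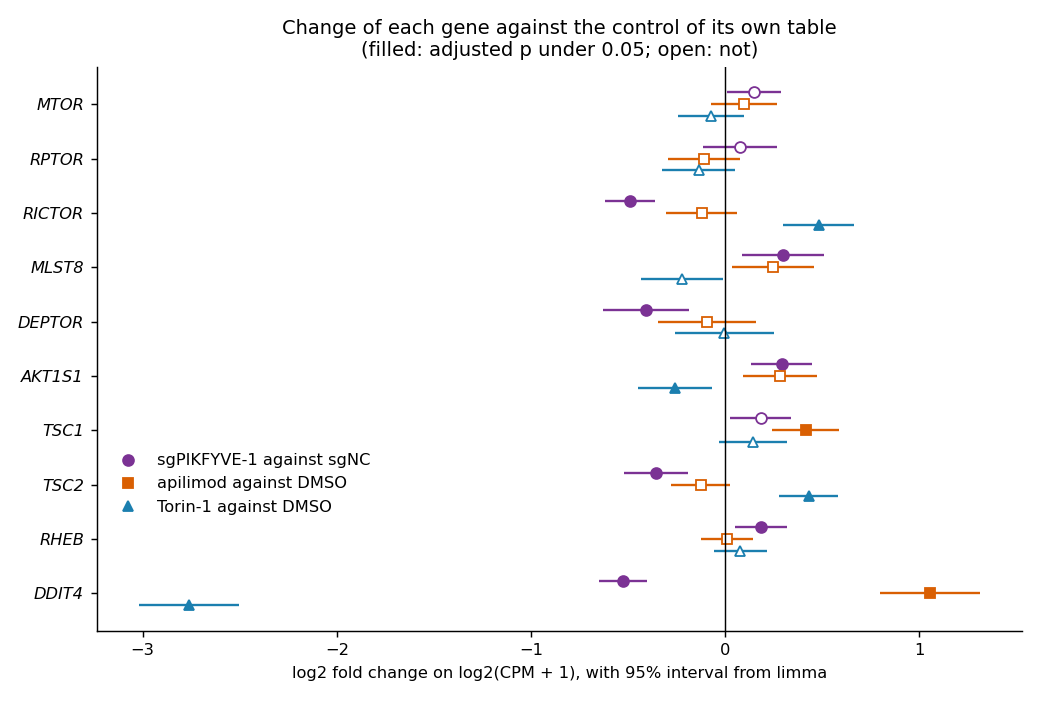
Log2 fold change of each member on log2(CPM + 1) with its 95% interval, for sgPIKFYVE-1 against sgNC, apilimod against DMSO and Torin-1 against DMSO, filled where the adjusted p was under 0.05. DDIT4 lies at −0.53, 1.06 and −2.76 in the 3 comparisons, and every other member lies between −0.50 and 0.50.

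Apilimod inhibits the kinase that the guide represses, but fewer members passed under it. DDIT4 and TSC1 rose, and 2 of 10 members passed, both higher. Of the 13520 genes tested in the drug table, 8.54% passed, 5.75% higher and 2.79% lower. That total of 1155 genes was 656 without DMSO replicate 1, 597 without DMSO replicate 2 and 689 without apilimod replicate 1, and after quantile normalization it split into 658 higher and 536 lower in place of 778 and 377. No member passed lower by limma, and the unadjusted p was under 0.05 for 4 higher members and 0 lower. The groups did not overlap for 8 of 10 members, against 50.7% of all genes. The median log2 fold change was 0.05 for the members and −0.00575 for all genes.

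DDIT4, the stress-induced inhibitor, was at 38.6 and 42.0 CPM in DMSO and at 83.9 and 85.5 CPM in apilimod. Both apilimod samples were far above both controls (2.10-fold, log2 fold change 1.06, SE 0.120, adjusted p = 4.3e-05 by limma). By size this was the 128th highest log2 fold change of all genes tested. TSC1 was at 48.7 and 44.7 CPM in DMSO and at 60.8 and 64.2 CPM in apilimod, with no overlap (1.34-fold, log2 fold change 0.41, SE 0.081, adjusted p = 0.00444 by limma). The TSC1 call was lost without DMSO replicate 2 (adjusted p = 0.0788 by limma) and without the trend. TSC2, its partner, did not pass. It was at 85.3 and 81.8 CPM in DMSO and at 79.9 and 73.1 CPM in apilimod (log2 fold change −0.13, 95% interval −0.28 to 0.03).

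Of the inhibitory subunits, AKT1S1 came closest to passing, at 81.8 and 70.7 CPM in DMSO and 91.0 and 94.2 CPM in apilimod (log2 fold change 0.28, adjusted p = 0.0694 by limma). Both apilimod samples were above both controls, and AKT1S1 passed when either Torin-1 sample was left out of the fit, when only DMSO and apilimod were fitted, or with the replicate number as a block (adjusted p = 0.0168 by limma). MLST8 was at 38.9 and 36.9 CPM in DMSO and at 48.3 and 42.1 CPM in apilimod (log2 fold change 0.25, adjusted p = 0.163 by limma). DEPTOR was at 17.7 and 18.2 CPM in DMSO and at 16.8 and 16.6 CPM in apilimod (log2 fold change −0.09, 95% interval −0.35 to 0.16). For MLST8 and DEPTOR the groups did not overlap. The 95% interval of MLST8 (0.03 to 0.46) did not reach 0, and MLST8 failed only after adjustment over all genes (unadjusted p = 0.0262 by limma). The interval of DEPTOR included 0.

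RICTOR, which fell with the guide, was at 100.5 and 108 CPM in DMSO and at 90.3 and 102 CPM in apilimod, and the groups overlapped (log2 fold change −0.12, 95% interval −0.30 to 0.06). RPTOR was at 39.5 and 39.8 CPM in DMSO and at 36.3 and 37.1 CPM in apilimod (log2 fold change −0.11, 95% interval −0.29 to 0.08). MTOR was at 97.9 and 103 CPM in DMSO and at 112 and 103 CPM in apilimod (log2 fold change 0.10, 95% interval −0.07 to 0.26), with the higher control just under the lower apilimod sample. RHEB was at 136 and 147 CPM in DMSO and at 140.3 and 144 CPM in apilimod, within the range of the controls (log2 fold change 0.01, 95% interval −0.12 to 0.15). The kinase, both defining subunits and the GTPase therefore did not pass, and their intervals reach from −0.30 to 0.26 on the log2 scale. The knockdown and apilimod values stand in separate tables, and whether DDIT4 at −0.53 and at 1.06 differ was not tested.

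Torin-1, which blocks the kinase activity of mTOR itself, moved DDIT4 more than any other member, and in the opposite direction from apilimod. RICTOR and TSC2 rose, and DDIT4 and AKT1S1 fell, so that 4 of 10 members passed, 2 higher and 2 lower. Of all genes tested, 38.5% passed, 16.6% higher and 21.8% lower. After quantile normalization, or after rescaling to a common sum, the 2 higher calls were kept in number and 1 member was called lower. The groups did not overlap for 7 of 10 members, against 69.3% of all genes, and the median log2 fold change was −0.04 for the members and −0.0119 for all genes.

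DDIT4 was at 38.6 and 42.0 CPM in DMSO and at 4.38 and 5.86 CPM in Torin-1, which corresponds to 426 and 506 reads against 47 and 68 reads. What was left was 12.7% of control (log2 fold change −2.76, SE 0.120, adjusted p = 1.38e-09 by limma). Of all 13520 genes tested, it had the second lowest log2 fold change. The gene is an inhibitor of the complex that Torin-1 inhibits.

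RICTOR was at 100.5 and 108 CPM in DMSO and at 134 and 159 CPM in Torin-1. Both Torin-1 samples were above both controls, although they were further apart than the controls (1.40-fold, log2 fold change 0.48, SE 0.085, adjusted p = 0.00057 by limma). TSC2 was at 85.3 and 81.8 CPM in DMSO and at 117 and 109 CPM in Torin-1 (1.35-fold, log2 fold change 0.43, SE 0.071, adjusted p = 0.00033 by limma). These transcripts of the complex 2 subunit and the RHEB inhibitor were lower in the knockdown and higher in Torin-1, each in its own table. The calls of DDIT4, RICTOR and TSC2 held under every alternative tried in the Torin-1 comparison. AKT1S1 was at 81.8 and 70.7 CPM in DMSO and at 68.5 and 58.7 CPM in Torin-1 (log2 fold change −0.26, SE 0.089, adjusted p = 0.0334 by limma). The AKT1S1 call was lost without DMSO replicate 1, without Torin-1 replicate 2, without the filter, without the trend and under quantile normalization or rescaling, with an adjusted p of up to 0.315.

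The 6 others did not pass with Torin-1. MLST8 was at 38.9 and 36.9 CPM in DMSO and at 30.6 and 34.2 CPM in Torin-1, lower in both samples (log2 fold change −0.22, adjusted p = 0.0882 by limma). RPTOR was at 39.5 and 39.8 CPM in DMSO and at 36.8 and 35.1 CPM in Torin-1 (log2 fold change −0.14, 95% interval −0.32 to 0.05). TSC1 was at 48.7 and 44.7 CPM in DMSO and at 52.7 and 50.4 CPM in Torin-1 (log2 fold change 0.14, 95% interval −0.03 to 0.32). For these 3 the groups did not overlap, whereas they overlapped for the next 3. MTOR was at 97.9 and 103 CPM in DMSO and at 103 and 88.1 CPM in Torin-1 (log2 fold change −0.08, 95% interval −0.24 to 0.09). DEPTOR was at 17.7 and 18.2 CPM in DMSO and at 17.0 and 18.8 CPM in Torin-1 (95% interval of the log2 fold change −0.26 to 0.25). RHEB was at 136 and 147 CPM in DMSO and at 144 and 155 CPM in Torin-1 (log2 fold change 0.08, 95% interval −0.06 to 0.21). The mRNA of the kinase that Torin-1 inhibits thus did not pass, and the values are compatible with any shift within its interval.

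The 2 drugs were then compared with each other, a contrast that does not use the DMSO samples for the fold change. Of the members, 6 of 10 passed, 2 higher and 4 lower in Torin-1 than in apilimod, where 46.7% of all genes passed (20.5% higher and 26.2% lower). The groups did not overlap for 8 of 10 members, against 72.5% of all genes. DDIT4 was at 83.9 and 85.5 CPM in apilimod and at 4.38 and 5.86 CPM in Torin-1, a level 6.05% of that in apilimod (log2 fold change −3.82, SE 0.120, adjusted p = 9.81e-12 by limma). RICTOR (log2 fold change 0.60, adjusted p = 5.73e-05 by limma) and TSC2 (0.56, adjusted p = 2.3e-05) were higher in Torin-1. Their Torin-1 samples lay above all 4 of the other drug-table samples, from 134 CPM for RICTOR and from 109 CPM for TSC2.

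AKT1S1 was lower in Torin-1 than in apilimod, 68.5 and 58.7 CPM against 91.0 and 94.2 CPM (log2 fold change −0.54, adjusted p = 0.000207 by limma). MLST8 was lower too, 30.6 and 34.2 CPM against 48.3 and 42.1 CPM (log2 fold change −0.47, adjusted p = 0.00141 by limma). For both, the DMSO samples lay between the 2 drugs. TSC1 was at 52.7 and 50.4 CPM in Torin-1 against 60.8 and 64.2 CPM in apilimod (log2 fold change −0.27, adjusted p = 0.0135 by limma), a call that was lost without Torin-1 replicate 2, without apilimod replicate 2 and after quantile normalization (adjusted p of up to 0.0846). MTOR (log2 fold change −0.17, 95% interval −0.34 to −0.00, adjusted p = 0.0914 by limma) did not pass here, but did without Torin-1 replicate 1 or with the replicate block (adjusted p as low as 0.0136). RPTOR (95% interval −0.22 to 0.16), DEPTOR (−0.16 to 0.34) and RHEB (−0.07 to 0.20) did not pass. The values are compatible with any shift within those intervals.

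Ratios of a pair of members within a sample need no scaling between samples, and 2 were taken after the values had been seen, so they carry no test. The ratio of RICTOR to RPTOR, the subunits that define complex 2 and complex 1, was 3.81 and 3.47 in sgNC and 2.26 and 2.64 in sgPIKFYVE-1. It was 2.55 and 2.72 in DMSO, 2.49 and 2.74 in apilimod, and 3.64 and 4.54 in Torin-1. The knockdown samples were thus below their controls, the Torin-1 samples above theirs, and the apilimod samples on either side of DMSO. The ratio of RHEB to TSC2, the GTPase to its inhibitor, was 1.08 and 1.07 in sgNC and 1.37 and 1.80 in sgPIKFYVE-1. It was 1.59 and 1.80 in DMSO, 1.76 and 1.98 in apilimod, and 1.23 and 1.42 in Torin-1. This ratio was higher in the knockdown than in its controls, and lower in Torin-1 than in DMSO.

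**Figure D3:**
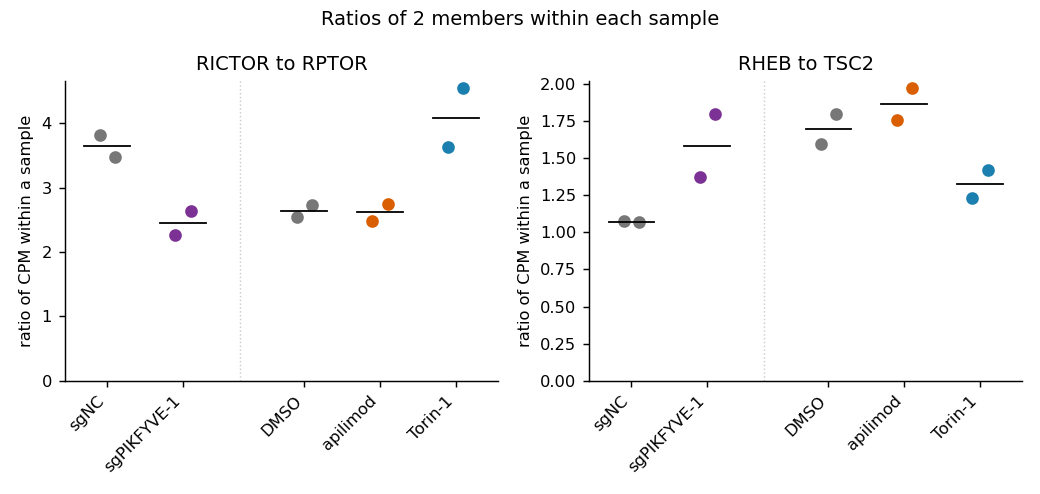
Ratio of CPM of RICTOR to RPTOR and of RHEB to TSC2 in each of the 10 samples, by group, with a bar at the mean of 2 samples. The Torin-1 samples reach 4.54 for RICTOR to RPTOR, and the sgNC samples of RHEB to TSC2 lie at 1.08 and 1.07.

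The pathway around the members was read from 57 other genes in 4 lists: 10 further subunits and partners, 19 upstream kinases and phosphatases, 20 substrates and effectors, and 8 transcription factors described for DDIT4. PRR5L, DDIT4L and EIF4EBP3 were under the filter, which left 54. In the knockdown 25 of the 54 passed, 11 higher and 14 lower, where 42.5% of all genes passed. With apilimod 10 passed, 6 higher and 4 lower, against 8.54% of all genes, and with Torin-1 33 passed, 17 higher and 16 lower, against 38.5%. The counts of the 4 lists given next are to be read against the same shares, which were 21.6% higher and 20.9% lower in the knockdown, 5.75% and 2.79% with apilimod, and 16.6% and 21.8% with Torin-1. A count near those shares is not a result about the list. The apilimod count was 6 without DMSO replicate 1 and 5 without DMSO replicate 2. Of the genes named next, limma without its trend lost AKT1, AKT2, ARNT, EIF4EBP2, EPAS1, GSK3B, HIF1A, MAPKAP1, NR3C1 and PDPK1 in the knockdown, ATF4, GSK3B, HIF1A, LARP1, NDRG1, NR3C1 and ULK1 with apilimod, and PRKAG1 and PRKAG2 with Torin-1. Without the filter on low values the calls lost were CEBPB, HIF1A and SGK1 in the knockdown, HIF1A, LARP1, NDRG1 and NR3C1 with apilimod, and GRB10, PRKAG2 and TTI2 with Torin-1. Calls lost on leaving out a sample or on rescaling are given with each gene.

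Of the 8 further subunits and partners tested, 2 passed in the knockdown, both higher, with a median log2 fold change of 0.02 over the list. They were FKBP1A (148 to 195 CPM by group mean, log2 fold change 0.40) and MAPKAP1 (49.4 to 64.8 CPM, log2 fold change 0.39). FKBP1A encodes FKBP12, the protein that rapamycin binds, and MAPKAP1 encodes the mSIN1 subunit of complex 2. None passed with apilimod by limma, where the unadjusted p was under 0.05 for 0 higher and 1 lower gene and the list median was −0.07. With Torin-1, 5 passed, 1 higher and 4 lower, and the median was −0.40. FKBP1A and MAPKAP1 were now among those that fell, by 0.50 and 0.42 on the log2 scale, with TTI2, a chaperone partner of the kinase (log2 fold change −0.43, a call lost without either DMSO sample or Torin-1 replicate 2). RHEBL1, a relative of RHEB, was the one that rose, from 3.08 and 3.40 CPM in DMSO to 8.11 and 8.62 CPM (log2 fold change 1.14). RICTOR and MAPKAP1, which both belong to complex 2, therefore moved in opposite directions in each of the knockdown and Torin-1 comparisons.

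Of the 19 upstream kinases and phosphatases, 8 passed in the knockdown, 3 higher and 5 lower, with a median of −0.06. AKT1 and AKT2, encoding forms of the kinase that phosphorylates TSC2 and AKT1S1, fell, with log2 fold changes of −0.28 and −0.34. RPS6KA3, encoding an RSK kinase, rose by 0.33, GSK3B by 0.27 and PDPK1, encoding the activating kinase of AKT, by 0.26. With apilimod, GSK3B alone passed (log2 fold change 0.37), while limma's unadjusted p was under 0.05 for 2 higher genes and 1 lower, and the median was 0.01. With Torin-1, 9 passed, 4 higher and 5 lower, and the median was 0.06. RPS6KA3 (log2 fold change 0.34) rose, as did the AMPK subunit PRKAG1 (0.24, a call lost without any one of the DMSO or Torin-1 samples). RPS6KA1, another RSK gene, fell by 0.56 (lost without DMSO replicate 1), PRKAG2 by 0.48 (lost without either DMSO sample or Torin-1 replicate 2) and PIK3R2, a regulatory subunit of PI 3-kinase, by 0.33.

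Of the 19 substrates and effectors tested, 9 passed in the knockdown, 3 higher and 6 lower, with a median of −0.01. GRB10, an adaptor that complex 1 phosphorylates and that dampens insulin signaling, fell from 93.1 and 89.8 CPM to 36.2 and 33.8 CPM (log2 fold change −1.36, SE 0.077, adjusted p = 5.13e-11 by limma). NDRG1, known as a substrate of SGK1, fell from 1711 and 1744 CPM to 742 and 723 CPM (log2 fold change −1.24, SE 0.039). ULK1, the kinase that starts autophagy, fell by 0.38 on the log2 scale. SGK1 rose from 6.86 and 5.59 CPM to 11.9 and 9.06 CPM (log2 fold change 0.67, lost without sgNC replicate 2 or sgPIKFYVE-1 replicate 1), LARP1, a repressor of ribosomal protein mRNA translation, by 0.46, and EIF4EBP2 by 0.16 (lost without sgNC replicate 1 or sgPIKFYVE-1 replicate 2, and after quantile normalization or rescaling to a common sum, with a log2 fold change as low as 0.10).

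With apilimod 5 substrates and effectors passed, 2 higher and 3 lower, with a median of −0.04. LPIN1, a phosphatidate phosphatase, rose from 165 and 167 CPM to 346 and 343 CPM (log2 fold change 1.05, SE 0.050, adjusted p = 3.35e-09 by limma). In the knockdown LPIN1 had gone the other way, from 323 and 306 CPM in sgNC to 247 and 259 CPM (log2 fold change −0.31, adjusted p = 4.15e-05 by limma). That knockdown call of LPIN1 was not put through the alternatives. LARP1 had a log2 fold change of 0.17 with apilimod, lost without either DMSO sample or apilimod replicate 1, and after quantile normalization or rescaling. SGK1 fell from 22.4 and 20.5 CPM to 12.6 and 12.4 CPM (log2 fold change −0.73), in every apilimod sample below every control. ULK1 fell by 0.44 and NDRG1 by 0.25, and both calls were lost without either DMSO sample or without apilimod replicate 2. With Torin-1, 13 passed, 7 higher and 6 lower, with a median of −0.12. ULK1 rose from 32.8 and 32.7 CPM to 63.8 and 56.8 CPM (log2 fold change 0.86), ATG13, its partner in autophagy, by 0.62, and EIF4B, a translation initiation factor, from 521 and 511 CPM to 894 and 934 CPM (log2 fold change 0.82). NDRG1 fell from 194 and 204 CPM to 96.2 and 88.2 CPM (log2 fold change −1.10), EIF4EBP1, the translation repressor that complex 1 inactivates, by 0.69, and GRB10 by 0.57 (lost without DMSO replicate 2).

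**Figure D4:**
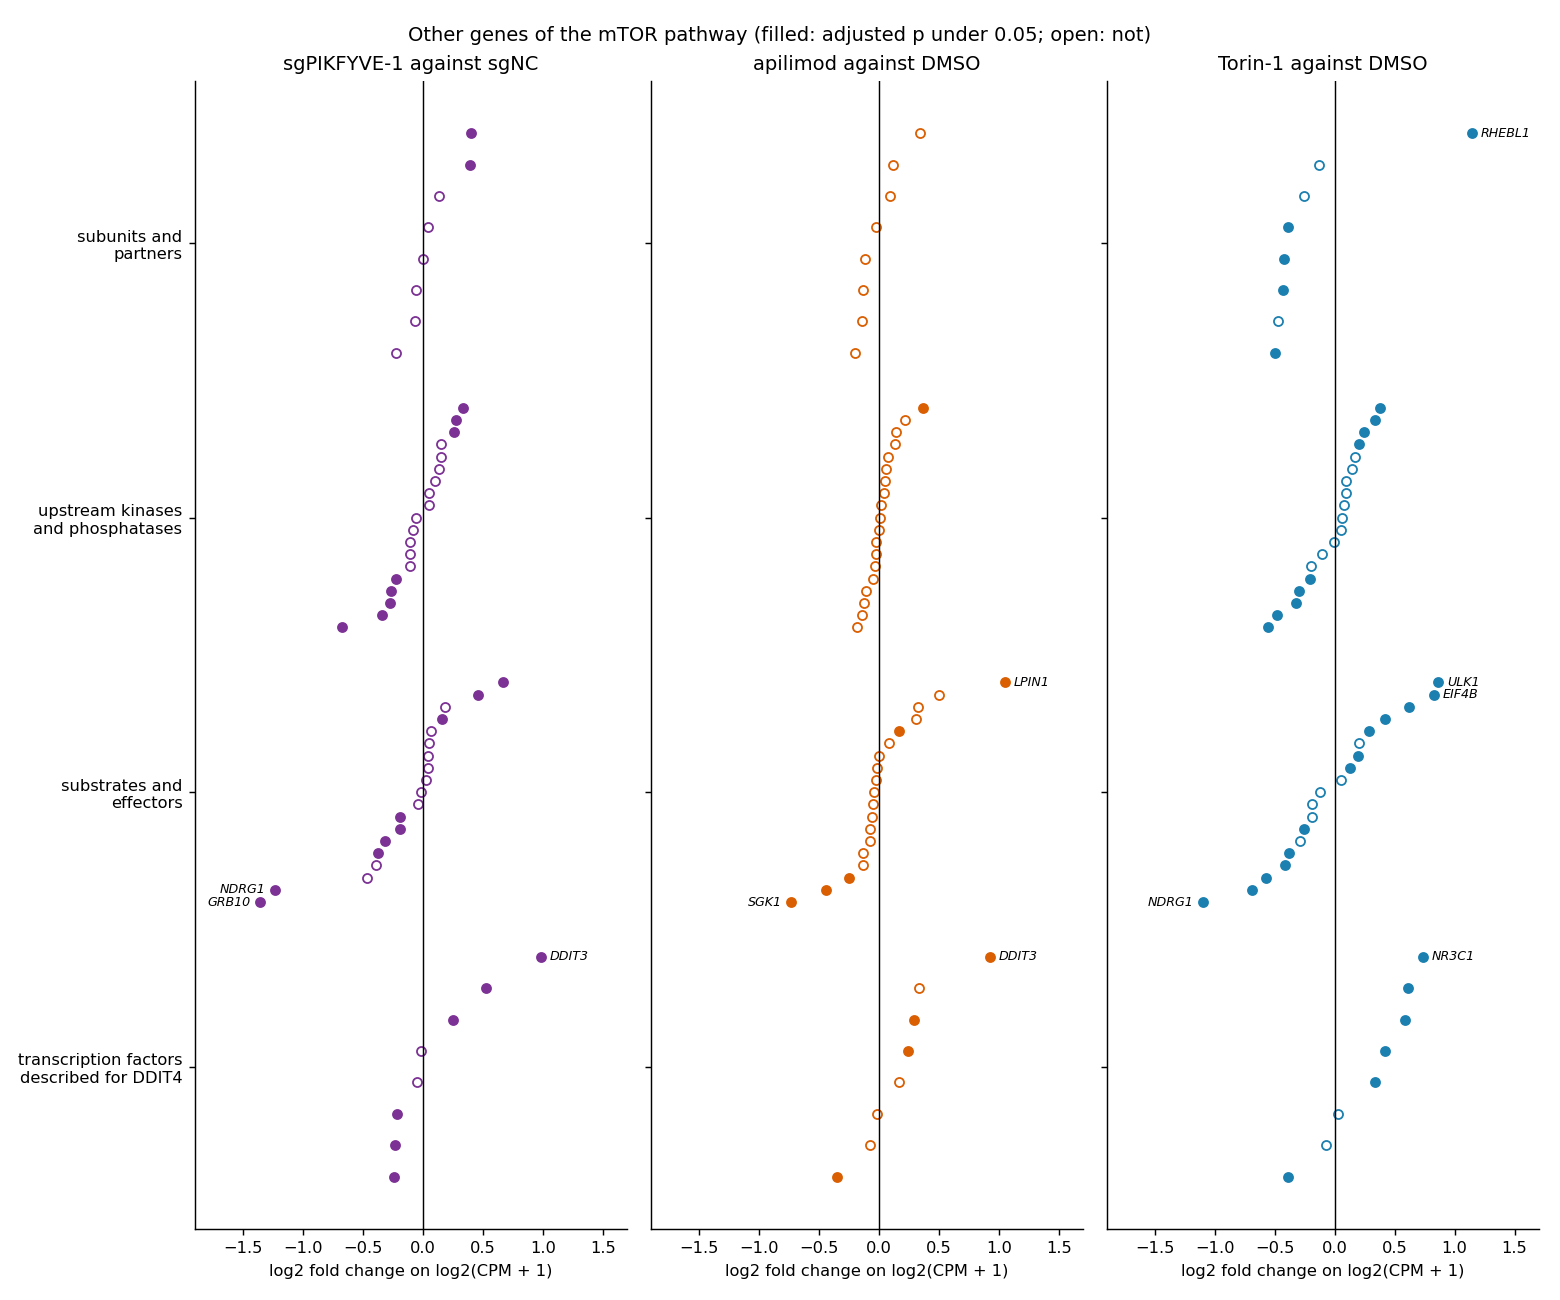
Log2 fold changes on log2(CPM + 1) of the 54 other pathway genes tested, by list and sorted within it, in the 3 comparisons, filled where the adjusted p was under 0.05. The genes furthest from 0 are named, among them GRB10 (−1.36) and NDRG1 (−1.24) in the knockdown, LPIN1 (1.05) in apilimod and RHEBL1 (1.14) in Torin-1.

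Of the 8 transcription factors described for DDIT4, 6 passed in the knockdown, 3 higher and 3 lower, with a median of −0.03. DDIT3, the stress factor CHOP, rose from 24.3 and 25.3 CPM to 49.4 and 50.6 CPM (log2 fold change 0.98). CEBPB rose by 0.52 (lost without sgNC replicate 1 or sgPIKFYVE-1 replicate 2) and HIF1A by 0.25. The hypoxia factors EPAS1 and ARNT fell by 0.24 and 0.22 (ARNT lost without sgNC replicate 2 or sgPIKFYVE-1 replicate 2), and NR3C1, the glucocorticoid receptor, by 0.24. With apilimod 4 passed, 3 higher and 1 lower, and the median was 0.21. DDIT3 rose by 0.92, ATF4, the factor of the integrated stress response, by 0.29, and HIF1A by 0.24, while NR3C1 fell by 0.35. The HIF1A call was lost without any one of the DMSO or apilimod samples, and that of NR3C1 without DMSO replicate 2 or apilimod replicate 1.

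With Torin-1, 6 of the 8 passed, 5 higher and 1 lower, and the median was 0.38. NR3C1 rose from 155 and 170 CPM to 255 and 287 CPM (log2 fold change 0.74), and DDIT3 by 0.61. HIF1A was the one that fell, from 183 and 181 CPM to 133 and 145 CPM (log2 fold change −0.39, SE 0.057, adjusted p = 0.000121 by limma). DDIT3 thus rose in all 3 comparisons, in which DDIT4 fell, rose and fell. HIF1A rose, rose and fell in the same order. These are mRNA levels, and the activity of the factors was not measured.

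The genes whose pattern over the 10 samples was most like that of DDIT4 were found by Euclidean distance between log2(CPM + 1) values, each taken relative to the mean of its table's controls, among 13235 genes tested in both tables. The nearest was BHLHE40, encoding a basic helix-loop-helix repressor, at a distance of 0.759, followed by CXCR4 (a chemokine receptor) at 1.97, AK4 (a mitochondrial adenylate kinase) at 2.07, EGLN3 (a prolyl hydroxylase of the hypoxia pathway) at 2.08 and PFKFB4 (an enzyme setting fructose 2,6-bisphosphate) at 2.14. BHLHE40 was at 187 and 191 CPM in sgNC and at 116 and 113 CPM in sgPIKFYVE-1. It was at 52.3 and 54.2 CPM in DMSO, 129 and 118 CPM in apilimod, and 10.1 and 9.14 CPM in Torin-1. BHLHE40 was thus lower, higher and lower than its controls in the order that DDIT4 showed, with log2 fold changes of −0.72, 1.20 and −2.36 against −0.53, 1.06 and −2.76.

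The other 4 were less near. The log2 fold changes in the knockdown, apilimod and Torin-1 were −1.21, −0.11 and −2.27 for AK4, −1.17, 0.22 and −1.75 for EGLN3, and −0.74, 1.14 and −1.28 for PFKFB4. AK4 was at 28.4 and 31.7 CPM in DMSO and at 27.9 and 27.5 CPM in apilimod, and EGLN3 was at 13.0 and 11.6 CPM against 14.9 and 14.1 CPM. PFKFB4 was at 18.8 and 18.6 CPM in DMSO and at 42.0 and 42.7 CPM in apilimod, so its apilimod samples were far above the controls. CXCR4 was at 3.35 and 2.07 CPM in DMSO, 3.30 and 5.52 CPM in apilimod, and 0.279 and 0.0862 CPM in Torin-1, the last at 3 reads or fewer, so no fold is given. BHLHE40 was the nearest under all 13 alternatives tried, and 3 to 5 of the 5 genes were shared with the list given here. All of these alternatives kept the Euclidean distance. Correlation orders the genes differently: VWA1, which is not among the 5, had a Pearson r of 0.991 with DDIT4, against 0.986 for BHLHE40. Genes chosen for their likeness to DDIT4 carry no test of that likeness.

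The RefSeq promoter of BHLHE40, the gene nearest to DDIT4 by Euclidean distance, is shown for comparison with that of DDIT4. It is given as the 250 bases of chr3:4979187-4979436 (GRCh38.p14, forward strand), with ACGTG and CCAAT on either strand in capitals.
BHLHE40: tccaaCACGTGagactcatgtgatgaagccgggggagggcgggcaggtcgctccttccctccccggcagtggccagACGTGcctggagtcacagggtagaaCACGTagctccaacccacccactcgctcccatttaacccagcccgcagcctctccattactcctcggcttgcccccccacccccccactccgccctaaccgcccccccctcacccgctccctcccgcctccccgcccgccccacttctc
It held ACGTG 4 times, at 245 and 244 bases before the start in the overlapping letters CACGTG, and at 174 and 149 bases. Of the 5 nearest genes, 2 (BHLHE40 and AK4) held ACGTG in at least 1 window, against 18.5% of all windows, and 1 (CXCR4) held CCAAT. The absence of ACGTG in the windows of CXCR4, EGLN3 and PFKFB4 says only that it is not in those bases.

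**Figure D5:**
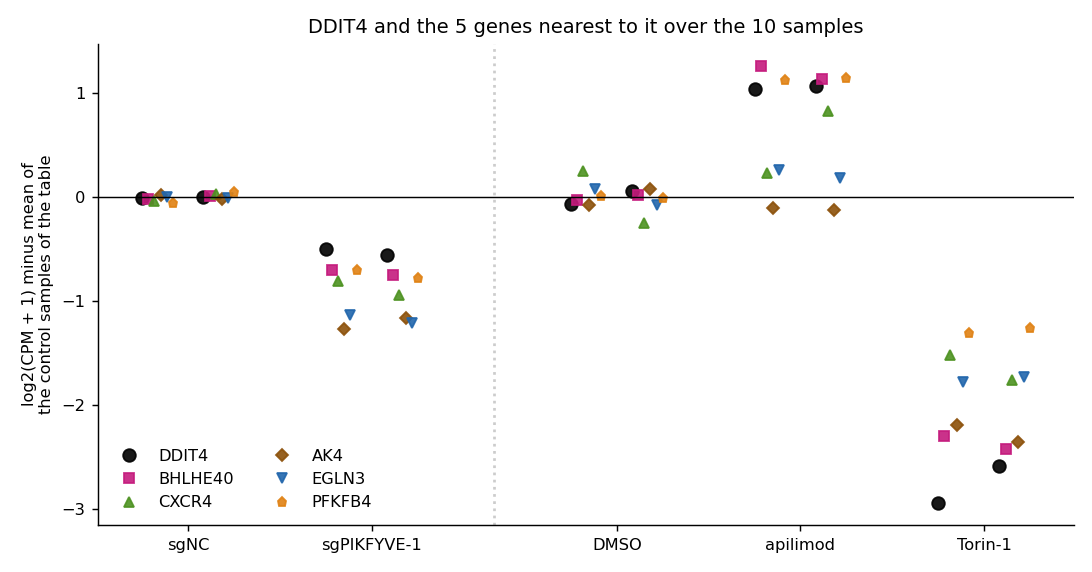
Log2(CPM + 1) of DDIT4 and the 5 genes nearest to it in each of the 10 samples, relative to the mean of the control samples of the same table. DDIT4 and BHLHE40 lie close together in every group, above 0 in apilimod and lowest in Torin-1.

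The controls of the 2 tables differed for some of these genes, although the tables were normalized separately and the difference was not tested. DDIT4 was at 143 and 144 CPM in sgNC and at 38.6 and 42.0 CPM in DMSO, and DEPTOR was at 35.5 and 37.0 CPM against 17.7 and 18.2 CPM. The same held for NDRG1 (1711 and 1744 CPM against 194 and 204 CPM), GRB10 (93.1 and 89.8 CPM against 16.0 and 17.5 CPM) and BHLHE40 (187 and 191 CPM against 52.3 and 54.2 CPM). The fall of DDIT4 in the knockdown thus started from a level above any seen in the drug table, and the knockdown level of 101 and 96.9 CPM was above that of the apilimod samples in which DDIT4 had risen. The sgNC cells carry the CRISPRi vector and the DMSO cells received the solvent, so vector, selection and culture cannot be told apart here.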

How the data were processed

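The 10 QGP-1 samples were put into 5 groups of 2 by their titles. The authors demultiplexed with bcl2fastq 2.20, checked reads with FastQC, trimmed them with Trimmomatic, scaled with the TMM factors of edgeR and tested with DESeq2, as the submitters' processing notes and the study's methods have it (build hg38). The quantifier and annotation are not given in the sources used here. The labels describe depletion of ribosomal RNA and the methods oligo(dT) selection. What the authors deposited is a signal on the CPM scale, relative to TMM-scaled library sizes, separately for the knockdown and the drugs. Sums per sample ran from 972494 to 1024332. The test planned for plain CPM was kept. Only 68.1% to 71.6% of values up to 20 reads lay within 0.02 of a whole read, so reads were not recovered and count models not used. Replicates differed by more than sampling noise (median chi-square 1.87 to 2.56 times the expectation). Limits in reads cover counting error only. Dates stood in place of 27 gene names.

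limma 3.58.1 (R 4.3.3; lmFit, then eBayes with a trend) was run on log2(CPM + 1) for genes averaging 1 CPM or more, in 4 knockdown samples or 6 drug samples, with Benjamini-Hochberg adjustment across all genes tested. A pseudocount of 1 makes changes of low genes look smaller. The scripts were tested on simulated data. Folds and percentages of control are ratios of mean CPM, and levels per kb use the APPRIS principal transcript of GENCODE release 29. Named genes were all 10 members, PIKFYVE, and per list and comparison up to 3 highest and 3 lowest genes that passed with groups that did not overlap, with the 5 genes nearest to DDIT4. Some genes that met this rule are not reported here. The members and lists were chosen with earlier results of these data known. The alternatives tried were quantile normalization, a smaller pseudocount (0.1), keeping low genes, the replicate number as a block, limma without its trend, a fit of only the 2 groups compared, each replicate left out and, chosen after seeing the data, rescaling every sample to the same sum.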

Additional observations from a re-analysis of the deposited data

How the results depend on the processing

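Without the variance trend 3 members passed in the knockdown in place of 7 and 1 with apilimod in place of 2, and 11 and 3 of the 54 other pathway genes passed in place of 25 and 10. Without the filter on low values 4 members passed in the knockdown and 6 pathway genes with apilimod. Leaving out 1 replicate gave 4 (without sgNC replicate 2) to 6 members in the knockdown, 1 (without DMSO replicate 2) to 3 with apilimod, 3 to 4 with Torin-1 and 5 to 7 between the drugs. For pathway genes it gave 22 to 23 in the knockdown, 5 to 10 with apilimod and 23 to 33 with Torin-1. Where it left 1 sample in a group, that sample was assumed to vary like the others. Over all genes, 3709 passed in the knockdown without the trend in place of 5772, and with apilimod 565 passed without the filter, 466 without the trend and 1756 with a replicate block in place of 1155. No called member changed direction under any alternative, and TSC2 in the knockdown, whose call held when any 1 sample was left out, passed under all but the fit without the trend (adjusted p = 0.0792 by limma).

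The replicate numbers recur in each group. Over all genes, deviations of same-numbered samples were weakly and positively correlated, at 0.037 between sgNC and sgPIKFYVE-1 and 0.043 between DMSO and apilimod. The correlation was 0.048 between DMSO and Torin-1 and 0.104 between the drugs. The replicate block raised the number of genes called from 5772 to 6111 in the knockdown and from 1155 to 1756 with apilimod. It went from 5202 to 5903 with Torin-1 and from 6312 to 6960 between the drugs. Whether same-numbered samples were handled together was not tested. With the replicate block 7 members passed in the knockdown, 3 with apilimod, 4 with Torin-1 and 7 between the drugs, and 25, 13 and 37 pathway genes in the first 3 comparisons. At 9.30 to 13.6 M reads, the lowest member value rests on 47 reads.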
